A study of Homo sapiens with 50 samples.

Results

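The genes described here are 32 genes of the lysosome and of the vacuolar-type proton pump (V-ATPase) that acidifies it. They were taken by symbol from the 2 deposited gene tables, each of 57905 genes, and all 32 were found in both tables. The set holds 8 subunits of the cytosolic V1 sector of the pump, 6 of the membrane V0 sector, 2 accessory subunits, 6 lysosomal proteases, 4 glycosidases and saposins, 3 proteins of cholesterol transfer and calcium release, 2 lysosomal membrane glycoproteins and 1 transcription factor, TFEB.

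The RNA came from the human embryonic stem cell line H1, unmodified, as undifferentiated cells of day 0 and as cultures on days 3, 5, 7 and 11 of spontaneous or WNT-inhibited differentiation. On each of these days there were 6 treatments. They were IWP2 with NaHCO3 and 2-DG, IWP2 with NaHCO3, IWP2 alone, NaHCO3 alone, HCl alone, and an untreated control. IWP2 is an inhibitor of WNT secretion that drives mesoderm towards heart muscle, NaHCO3 is a base and HCl an acid, and 2-DG (2-deoxyglucose), an analogue of glucose, blocks glycolysis. The 25 groups of treatment and day have 2 libraries each, 50 in all. The labels used here give neither doses nor the times of addition, nor a measured pH, and do not say whether the 2 libraries of a group came from separate cultures, so a p-value here measures only the spread between these libraries.

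The V-ATPase hydrolyses ATP in its V1 sector and uses the turning of a central stalk to carry protons through the V0 ring into lysosomes, endosomes and the Golgi apparatus. The acid interior activates the cathepsins and glycosidases, and it drives the export of cholesterol and amino acids. TFEB and its relatives of the MiT/TFE family bind a short E-box type element in the promoters of many lysosomal genes and raise their transcription when the kinase mTORC1 is inactive on the lysosome's surface.

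That element was looked for in the promoters, since it is known from many lysosomal genes. RefSeq promoter windows (build GRCh38.p14, from 250 bases before to 50 after the start) were matched by symbol for 23 of the 32 genes. The palindromic E-box core CACGTG stood in 8 of the 23 (34.8%), against 2030 of the 27305 promoters of the whole table (7.43%). With a T before it on either strand (TCACGTG, which contains the core), the same 8 promoters matched (34.8%), against 1043 of all promoters (3.82%). The full form of the element, the core with GT before it and AC after it, which contains both shorter ones, stood in the promoters of ATP6V1G1, GAA and MCOLN1 (13.0%), against 104 of all promoters (0.381%). The other 5 promoters with a core were those of ATP6V0B, ATP6V0D1, CTSA, CTSD and LAMP1. Below are 5 of the 8, shown because they belong to a V0 subunit, a V1 subunit, a calcium channel, a glycosidase and a membrane glycoprotein whose values are given further on. Capitals mark the core, and each line reads 5′ to 3′ on the gene's own strand.
ATP6V0B, chr1:43974840-43974959, plus strand: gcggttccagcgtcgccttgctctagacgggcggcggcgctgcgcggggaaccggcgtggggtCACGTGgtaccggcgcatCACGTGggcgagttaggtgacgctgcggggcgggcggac
ATP6V1G1, chr9:114587649-114587768, plus strand: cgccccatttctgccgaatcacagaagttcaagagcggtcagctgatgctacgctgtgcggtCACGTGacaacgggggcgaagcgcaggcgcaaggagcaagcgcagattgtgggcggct
MCOLN1, chr19:7522504-7522623, plus strand: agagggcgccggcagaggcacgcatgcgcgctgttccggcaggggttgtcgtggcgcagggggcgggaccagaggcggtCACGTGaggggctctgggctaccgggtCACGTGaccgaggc
GAA, chr17:80101461-80101580, plus strand: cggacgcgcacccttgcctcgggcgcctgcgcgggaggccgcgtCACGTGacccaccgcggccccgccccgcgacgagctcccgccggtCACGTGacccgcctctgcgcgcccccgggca
LAMP1, chr13:113297039-113297238, plus strand: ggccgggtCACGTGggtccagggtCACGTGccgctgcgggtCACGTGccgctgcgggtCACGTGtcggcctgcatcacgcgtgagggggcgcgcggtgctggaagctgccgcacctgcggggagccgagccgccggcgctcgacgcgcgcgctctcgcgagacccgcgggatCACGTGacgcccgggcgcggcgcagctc
The stretch of the LAMP1 promoter holds 5 cores, those of ATP6V0B, MCOLN1 and GAA 2 each, and that of ATP6V1G1 1. A match of these letters is a description of the sequence and not a binding site.

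Total counts lay between 14794134 and 22796553 in the 24 libraries of days 3 and 5 and between 14090004 and 20445875 in the 26 libraries of days 7, 11 and 0. The 2 tables were deposited separately, so no test crosses them and levels set side by side across them are not compared. Levels are in FPKM (fragments per kilobase of exon, scaled to the total count of the library). Changes are log2 fold changes ± SE from edgeR's quasi-likelihood test on the counts, fitted on all genes of a table that reached 1 FPKM in 2 or more libraries. A change was called at a Benjamini-Hochberg adjusted p under 0.05 over those genes, 17286 on days 3 and 5 and 18451 on the other days. All 32 genes passed this filter on days 7, 11 and 0, and 31 did on days 3 and 5, where TFEB stayed under 1 FPKM in every library. TFEB passed on the later days through the treated groups and stayed under 1 FPKM in the control of day 7 and in undifferentiated cells. The 2 libraries of 2-DG on day 3 stood apart: their values differed by a median of 0.33 on the log2 scale over genes, against 0.07 to 0.16 in the other 24 groups. Counts on mitochondrial genes made up 3.31% to 4.62% of each library on days 3 and 5. They differed more between treatments later. On day 7 they were 6.01% and 6.18% with 2-DG, against 3.88% and 3.99% with IWP2 and NaHCO3, and on day 11 9.41% and 8.97%, against 4.06% and 4.08%. With IWP2 alone they were 6.45% and 6.19% on day 7 and 7.54% and 7.85% on day 11, with NaHCO3 alone 2.57% and 2.82% on day 7 and 2.54% and 2.40% on day 11, and with HCl 4.86% and 5.10% on day 7, against 3.81% to 3.95% in the control of both days. The part of this share in the results of these groups was not tested.

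The cultures also differed in the markers of several cell types, summed over 6 genes each. Heart muscle markers (among them TNNT2 and MYH6) reached 5203 and 4741 FPKM with 2-DG on day 11, 252 and 259 with IWP2 and NaHCO3, 3342 and 3441 with IWP2, 18.6 and 19.5 with NaHCO3, 4895 and 4975 with HCl, and 495 and 688 in the control. Liver and foregut markers (among them AFP and APOA1) ran the other way that day, at 138 and 140 FPKM with 2-DG, 3914 and 3655 with IWP2 and NaHCO3, 134 and 122 with IWP2, 3946 and 3157 with NaHCO3, 173 and 288 with HCl, and 3613 and 4320 in the control. Fibroblast and matrix markers (among them COL1A1 and COL3A1) were at 330 and 433, 3414 and 3488, 641 and 582, 6357 and 6500, 331 and 343, and 2935 and 2936 FPKM in the same order of groups. Markers of macrophages and blood, cells rich in lysosomes, summed to 0.17 to 2.54 FPKM over all 50 libraries, with up to 4 of the 6 at 0 counts in a library. The groups with and without 2-DG also differed earlier. On day 5 liver and foregut markers were at 31.4 and 23.1 FPKM with 2-DG, against 214 and 207 with IWP2 and NaHCO3. Matrix markers were at 423 and 476, against 1573 and 1655, and heart muscle markers at 565 and 509, against 439 and 461. On day 7 liver and foregut markers were at 80.5 and 59.7 FPKM, against 903 and 934, and matrix markers at 356 and 290, against 2319 and 2206. The part of these cell types in the results below was not tested. In bulk RNA, fewer cells of a type and less RNA per cell cannot be told apart.

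The mRNA of PSAP, the precursor of the saposins that help to degrade sphingolipids, stood highest of the set in all 25 groups. Its group means were 248 to 389 FPKM on days 3 and 5 and 143 to 342 FPKM on days 7, 11 and 0. ATP6V1G1 and ATP6V1F, small subunits of the peripheral and central stalks, had 76.5 to 140.0 and 70.7 to 153 FPKM on the later days, and their ranges overlap. NPC2, a soluble protein that binds cholesterol inside the lysosome, spanned 51.4 to 274 FPKM on days 3 and 5 and 32.3 to 216 FPKM on the later days. At the low end on the later days were CTSH, a cysteine aminopeptidase, with 1.46 to 15.1 FPKM, the V0 subunit ATP6V0A2 with 1.42 to 4.28 FPKM, MCOLN1, a calcium channel of the lysosomal membrane, with 1.88 to 3.81 FPKM, and TFEB with 0.17 to 3.08 FPKM. Within days 7, 11 and 0, and apart from TFEB, which is near 0 in its lowest group, the highest group mean exceeded the lowest most for CTSH (10.3-fold), NPC2 (6.68-fold) and the carboxypeptidase CTSZ (5.25-fold). It exceeded it least for the V1 subunits ATP6V1C1 (1.35-fold) and ATP6V1H (1.5-fold). Within days 3 and 5 the span was again large for NPC2 (5.33-fold) and CTSH (3.38-fold), and smallest for the accessory subunit ATP6AP2 (1.3-fold).

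The first comparison asked how the set differed between untreated differentiating cultures and the stem cells they came from. On day 7, 27 of 32 genes were called, 17 higher and 10 lower than in undifferentiated cells, where 67.7% of all genes tested were called, 33.2% higher and 34.4% lower. On day 11, 29 were called, 18 higher and 11 lower, against 70.6% of all genes, 36.3% higher and 34.3% lower. The median change over the 32 was 0.30 on day 7 and 0.28 on day 11. Both comparisons use the same 2 undifferentiated libraries. The lysosomal genes outside the pump and the V1 subunits moved in opposite directions. Of the 16 lysosomal genes outside the pump 12 rose and 1 fell on day 7 (median 0.70), while of the 8 V1 subunits none rose and 7 fell (median −0.43). On the scale of FPKM, where limma's median over all genes shifted by 0.11 on day 7, limma called 21 members higher and 7 lower on day 7, and 21 higher and 8 lower on day 11, without the decreases of ATP6V0B and ATP6V1G1 on either day.

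Apart from TFEB, the largest rises on both days were those of the proteases CTSZ and CTSB. CTSB, a cysteine protease, was at 32.4 and 32.4 FPKM on day 7 and 27.4 and 28.9 on day 11, against 8.88 and 8.23 in undifferentiated cells, a change of 1.75 ± 0.07 and 1.62 ± 0.07. CTSZ was at 33.4 and 33.4 FPKM on day 7 and 33.6 and 34.6 on day 11, against 8.24 and 9.35 (1.76 ± 0.09 and 1.85 ± 0.09). All 4 control libraries exceeded both undifferentiated ones for either gene, with adjusted p-values of at most 8.48e-18 by edgeR. TPP1, a tripeptidyl peptidase, had 32.6 and 31.8 FPKM on day 7 and 26.4 and 27.8 on day 11, against 12.2 and 11.1 (1.30 ± 0.07 and 1.12 ± 0.07). CTSD, an aspartic protease, and CTSA, the carboxypeptidase that protects other lysosomal enzymes, rose by 0.72 and 0.69 on day 7. CTSH was not called on day 7 (−0.13) and rose by 0.68 on day 11.

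HEXA, the α subunit of β-hexosaminidase, had 5.07 and 5.32 FPKM on day 7 and 7.08 and 7.14 on day 11, against 2.90 and 2.73 in undifferentiated cells. The change was 0.72 ± 0.08 on day 7 and 1.24 ± 0.08 on day 11 (adjusted p = 1.94e-15 on day 11, edgeR). GLA, α-galactosidase A, went the other way, with 7.44 and 7.39 FPKM on day 7 and 6.44 and 6.65 on day 11, against 11.5 and 10.4. It fell by 0.73 on day 7 and by 0.85 on day 11. The membrane glycoprotein LAMP2 rose by 0.55 and 0.77. LAMP1 rose by 0.20 on day 7, while its change of 0.12 on day 11 was not called.

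Within the pump, ATP6AP1 (Ac45), an accessory subunit that guides assembly and targeting, was at 19.97 and 20.7 FPKM on day 7 and 20.4 and 19.7 on day 11, against 8.42 and 7.68 in undifferentiated cells. Its change was 1.17 ± 0.08 and 1.22 ± 0.08 (adjusted p = 9.58e-15 and 2.80e-15, edgeR), and the groups did not overlap. ATP6V0D1, which joins the V0 ring to the central stalk, had 6.11 and 5.93 FPKM on day 7, against 2.81 and 2.72, a rise of 0.95. ATP6V0A2, one isoform of the large a subunit, had 3.17 and 3.20 FPKM on day 7 and 2.55 and 2.40 on day 11, against 4.61 and 3.95. It fell by 0.59 and 0.89, while its paralog ATP6V0A1 rose by 0.45 and 0.27, the second of which was lost without the second undifferentiated library. In V1, the catalytic subunit ATP6V1A had 15.2 and 14.8 FPKM on day 7, against 19.0 and 20.4 in undifferentiated cells, and fell by 0.56. ATP6V1E1 had 20.1 and 20.9 FPKM, against 26.7 and 28.9, and fell by 0.61. The one V1 subunit not called on either day was ATP6V1F (0.11 and 0.14), and the smallest of the 7 decreases on day 7, that of ATP6V1D of the central stalk (−0.21), was lost without the second library of either group.

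TFEB itself was at 0.49 and 0.57 FPKM on day 7 and 0.97 and 1.27 on day 11, against 0.15 and 0.18 in undifferentiated cells. The order of the 3 groups was the same in all 6 libraries, and the changes were 1.49 ± 0.30 and 2.62 ± 0.27 (adjusted p = 6.63e-05 and 3.23e-10, edgeR). Both changes start from levels near 0, and TFEB entered the test through the treated groups, where it was higher. From day 7 to day 11 of the control, 9 genes were called, 5 higher and 4 lower, against 35.3% of all genes, and the largest changes were those of TFEB (1.13 ± 0.21) and CTSH (0.81 ± 0.11). Without the second control library of day 7 this count was 5, and on the FPKM scale limma called 4 higher and 9 lower. Between days 3 and 5 of the control, 9 of 31 genes were called, 5 higher and 4 lower, against 38.5% of all genes. NPC2 rose most (0.80 ± 0.17), and GLA (−0.66, lost without the first control library of day 5) and the V1 subunit ATP6V1B2 (−0.62) fell most. That count was 3 to 5 when any 1 of the 4 libraries was left out.

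**Figure D1:**
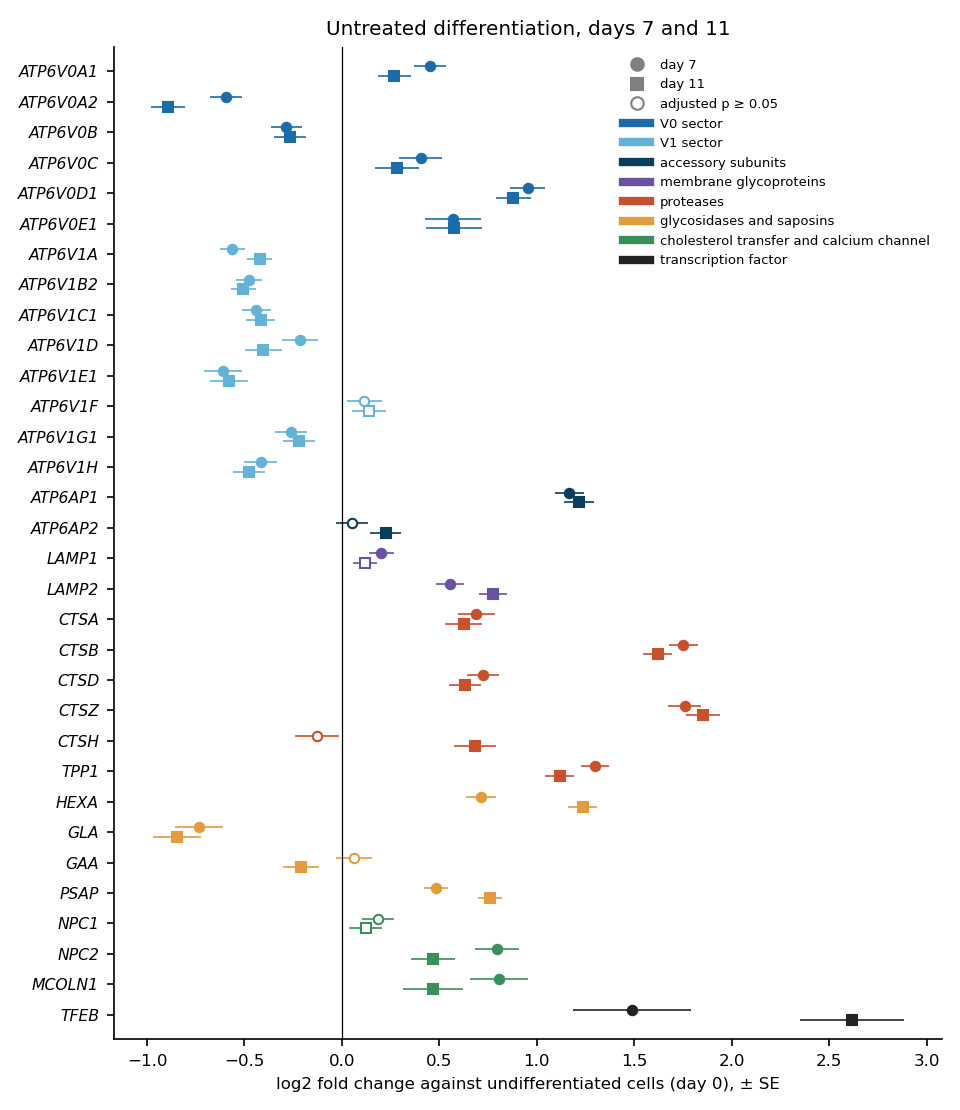
Log2 fold change ± SE (x axis) of the 32 genes (rows) in untreated cultures of day 7 (circles) and day 11 (squares) against undifferentiated cells, coloured by role; open symbols have an adjusted p of 0.05 or more. The proteases CTSB and CTSZ lie between 1.62 and 1.85, while 7 of the 8 V1 subunits lie below 0.

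The other 20 comparisons ask what each treatment did on each day. HCl, NaHCO3 and IWP2 were each set against the control of the same day, so these share control libraries. NaHCO3 with IWP2 was set against IWP2 alone, and 2-DG with IWP2 and NaHCO3 against IWP2 with NaHCO3. The libraries of IWP2 with NaHCO3 are thus the tested side of 1 comparison and the reference of another, as are those of IWP2 alone. Opposite changes in such comparisons are not independent. Few genes of the set were called on day 3 in the fit of all libraries of days 3 and 5. With HCl, 9 of 31 were called, 7 higher and 2 lower (30.0% of all genes), with NaHCO3 3, 1 higher and 2 lower (12.3%), with IWP2 1 (1.17%), with NaHCO3 added to IWP2 5, 3 higher and 2 lower (8.58%), and with 2-DG 10, 9 higher and 1 lower (16.9%). With HCl and with NaHCO3 alone the share of the set was no larger than that of all genes. On the FPKM scale limma called 5 higher and 3 lower with HCl, 0 and 4 with NaHCO3, and 4 and 3 with 2-DG.

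The counts of day 3 depended on single libraries. The count for HCl was 4 without the first control library and 5 without the second control or the first HCl library. For NaHCO3 it was 1 without either control library or the second NaHCO3 library, for IWP2 0 without the first control or either IWP2 library, and for NaHCO3 added to IWP2 0 or 1 without any 1 of the 4. For 2-DG it was 6 and 4 without the first and the second library of IWP2 with NaHCO3, and 23 without the second 2-DG library. With the 2 scattered 2-DG libraries of day 3 out of the fit, the counts were 15 for HCl, 10 for NaHCO3, 3 for IWP2 and 12 for NaHCO3 added to IWP2. The common spread between libraries, as edgeR's coefficient of variation, was 0.119 with these libraries in the fit and 0.0713 without them. The share of all genes called in the second fit is not given here. The largest changes of day 3 were those of ATP6V0E1, a small V0 subunit, with 2-DG (0.72 ± 0.17, but 0.26 without the first 2-DG library), MCOLN1 with 2-DG (0.71 ± 0.11) and ATP6V0A1 with HCl (0.70).

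**Figure D2:**
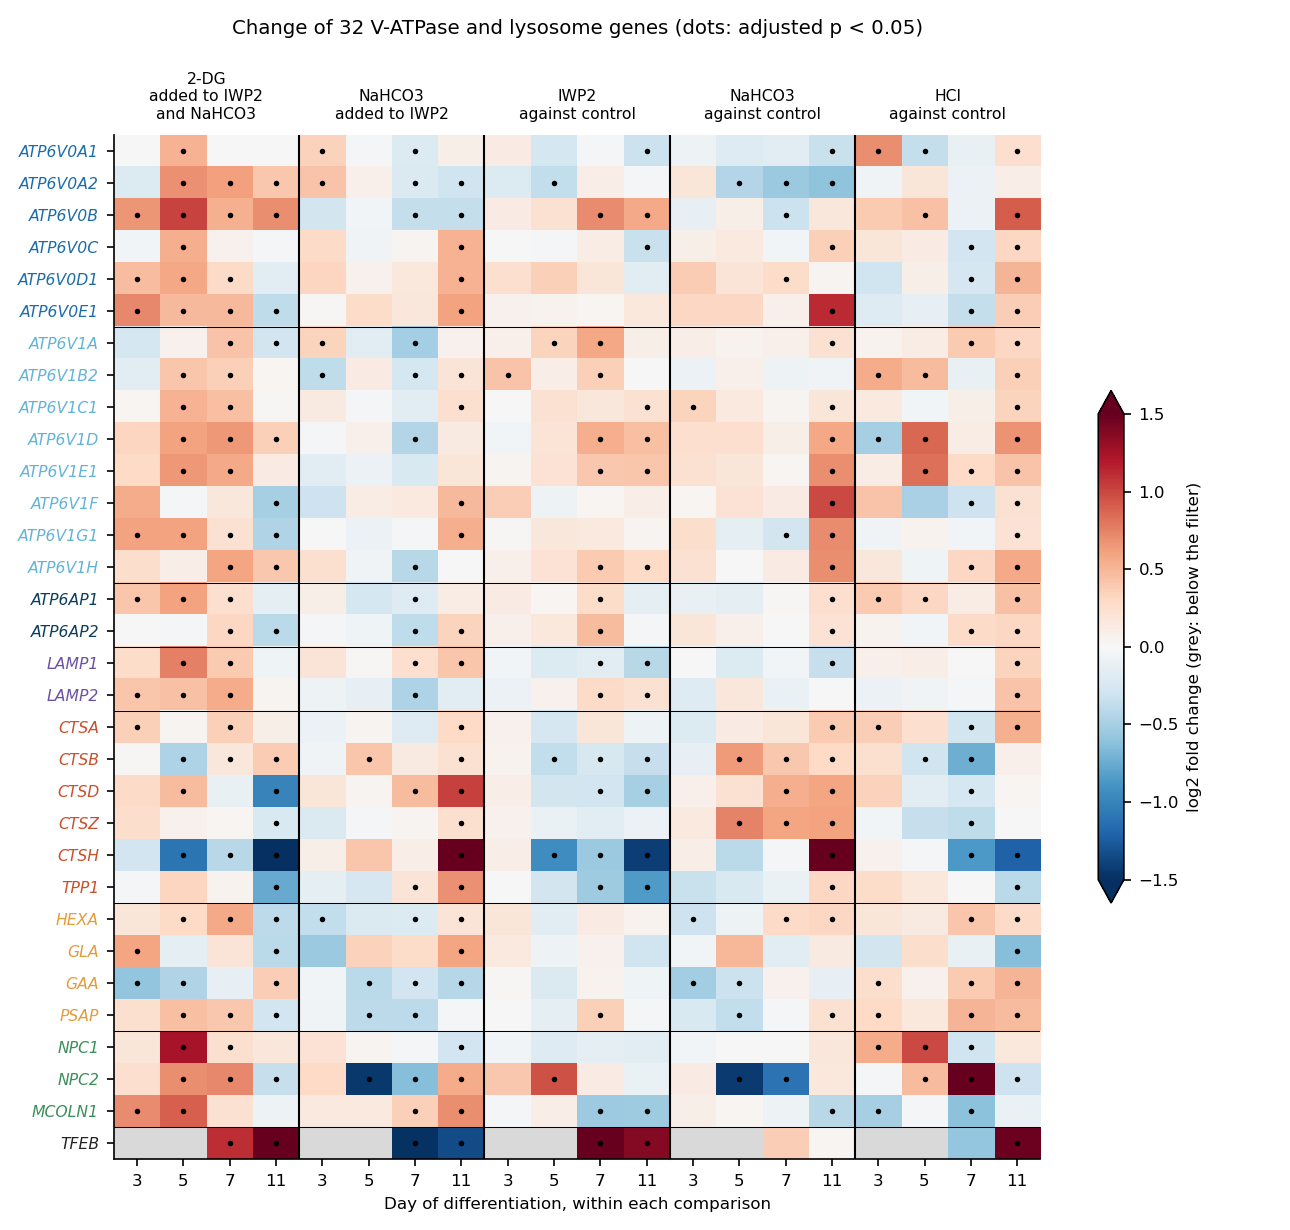
Log2 fold change (colour, clipped at 1.5 in size) of the 32 genes (rows) in the 20 treatment comparisons (columns, by treatment and day); a dot marks an adjusted p under 0.05, and grey marks TFEB where it was below the filter. The 2-DG columns of days 5 and 7 hold 20 and 22 called rises, and the CTSH row holds the largest changes on day 11, from −2.83 to 2.81.

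Added to IWP2 and NaHCO3, 2-DG raised most of the set on days 5 and 7. On day 5, 23 of 31 genes were called, 20 higher and 3 lower, where 39.6% of all genes were called, 20% higher and 19.6% lower. Of the 16 pump genes 12 rose and none fell (median 0.54), among them all 6 V0 subunits, and the median over the 31 was 0.48. On the FPKM scale, on which the median of all genes shifted by −0.11, limma called 17 higher and 4 lower. Leaving out any 1 of the 4 libraries gave 21 or 22 calls.

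NPC1, the membrane protein that exports cholesterol from the lysosome, was at 8.06 and 8.07 FPKM with 2-DG on day 5, against 3.75 and 3.97 with IWP2 and NaHCO3 alone. Both 2-DG libraries were above both of the others, and the change was 1.24 ± 0.15 (adjusted p = 2.26e-06, edgeR). Its partner NPC2 had 153 and 143 FPKM, against 106 and 98.8 (0.70 ± 0.16). MCOLN1 had 9.32 and 8.87 FPKM, against 5.51 and 5.50, and rose by 0.90 ± 0.10 (adjusted p = 9.65e-07). The same gene was already at 9.20 and 9.27 FPKM on day 3, against 6.51 and 5.93.

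ATP6V0B, a proteolipid of the V0 ring, had 36.0 and 35.9 FPKM with 2-DG on day 5, against 19.8 and 20.2 without it. The groups did not overlap, and the change was 1.02 ± 0.17 (adjusted p = 7.41e-05, edgeR). LAMP1 was at 46.6 and 41.4 FPKM, against 29.8 and 29.1, and rose by 0.75 ± 0.11. ATP6V1E1 had 26.3 and 25.1 FPKM, against 18.5 and 18.4 (0.65), and ATP6V1D 17.3 and 17.3, against 12.7 and 13.0 (0.60). The called rises of the set ran down to 0.30 for HEXA, and those of ATP6V0E1 (0.49) and HEXA were lost without the first 2-DG library or either library of the other group. The 3 genes that fell were CTSH, CTSB and the acid glucosidase gene GAA. CTSH had 1.15 and 1.29 FPKM, against 3.15 and 2.70 (−1.09 ± 0.19), CTSB 20.1 and 18.2, against 29.6 and 30.0 (−0.46), and GAA 8.10 and 7.95, against 12.2 and 12.7 (−0.46).

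On day 7, 23 of 32 genes were called with 2-DG, 22 higher and 1 lower, against 47.7% of all genes, 25.0% higher and 22.7% lower, and the median over the set was 0.33. Of the pump genes 13 rose and none fell (median 0.39), with 7 of the 8 V1 subunits among them. ATP6V1D was at 22.5 and 25.7 FPKM, against 15.7 and 16.8 (0.65), and ATP6V1H at 10.6 and 10.3, against 7.03 and 7.54 (0.59). TFEB had 2.02 and 2.27 FPKM, against 0.94 and 1.16, without overlap, and rose by 1.11 ± 0.18 (adjusted p = 3.66e-06, edgeR). It passed the filter through groups where it was high, 2-DG among them, so this p-value does not stand apart from that selection. The one decrease, that of CTSH (−0.42), was lost without the first library of either group.

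By day 11 the direction had changed. Of the set, 20 genes were called with 2-DG, 7 higher and 13 lower, against 51.8% of all genes, 24.9% higher and 26.8% lower, and the median was −0.07. CTSD was at 29.0 and 29.3 FPKM with 2-DG, against 57.1 and 61.1 without it, and fell by 1.00 ± 0.08 (adjusted p = 6.43e-12, edgeR). TPP1 had 13.7 and 12.7 FPKM, against 22.9 and 22.3 (−0.75 ± 0.07). ATP6V0B, in contrast, was still higher, at 24.5 and 24.1 FPKM, against 14.6 and 15.8 (0.70 ± 0.08). Tested as a difference between the effects of the 2 days, 20 of 32 genes had a changed 2-DG effect on day 11 minus day 7, 1 higher and 19 lower, against 30.2% of all genes, 13.8% higher and 16.4% lower. Between days 3 and 5 the 2-DG effect differed for 10 genes (21.4% of all genes), and this count was 5 and 6 without the first library of IWP2 with NaHCO3 of day 3 and the second 2-DG library of day 5, and 16 without the second 2-DG library of day 3.

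Genes with and without an E-box core in the promoter window rose with 2-DG on days 5 and 7. On day 5, 6 of the 8 with a core rose and 1 fell with 2-DG (median 0.59), against 8 rises and 1 decrease among the 14 tested genes with a window and no core (median 0.53). On day 7 it was 5 rises of 8 (median 0.26), against 8 rises and 1 decrease of 15 (median 0.24). On day 3 it was 5 rises and 1 decrease of 8 (median 0.41), against 2 rises of 14 (median 0.21). On day 11 it was 2 rises and 2 decreases of 8 (median −0.07), against 3 rises and 7 decreases of 15 (median −0.14). The medians of genes with and without a core were 0.42 and 0.23 with HCl on day 11. They were 0.47 and 0.24 with NaHCO3 added to IWP2, and 0.10 and 0.26 with NaHCO3 alone, on that day. Among the promoters printed above, those of ATP6V0B, MCOLN1, LAMP1 and ATP6V1G1 belong to genes that rose on day 5 (1.02, 0.90, 0.75 and 0.60), and that of GAA, with its 2 full-form cores, to one that fell (−0.46). The 2 kinds of gene were not compared by a test.

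**Figure D3:**
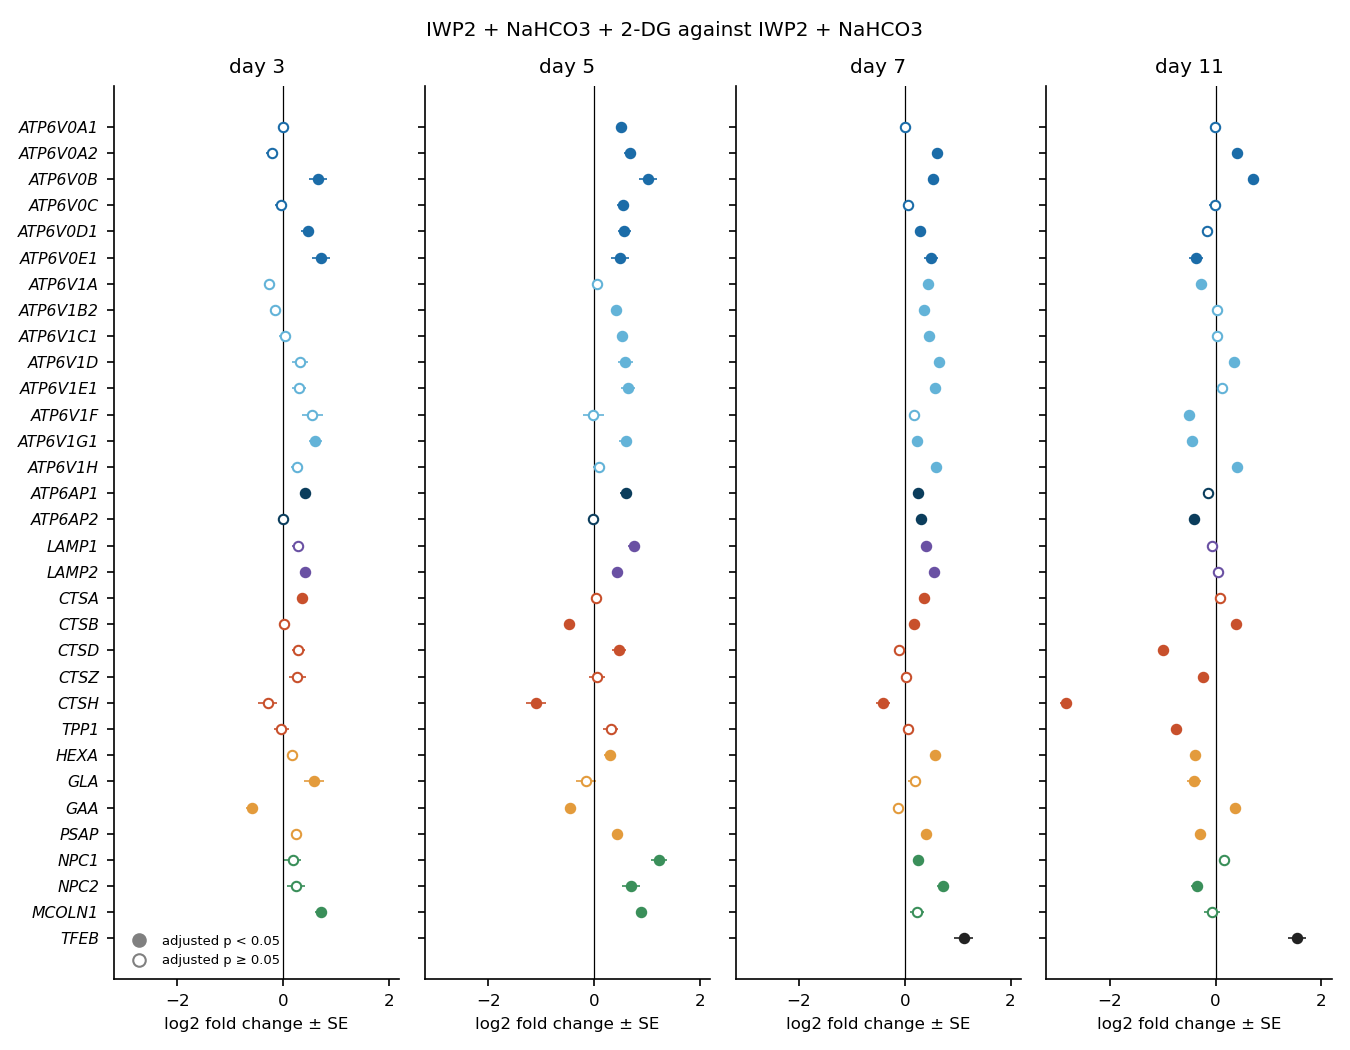
Log2 fold change ± SE of each gene for 2-DG with IWP2 and NaHCO3 against IWP2 with NaHCO3, in 4 panels for days 3, 5, 7 and 11. Most points lie above 0 on days 5 and 7, where the medians are 0.48 and 0.33, and CTSH reaches −2.83 on day 11.

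With acid the set was mixed on day 7 and mostly higher on day 11. On day 5, 9 of 31 genes were called with HCl, 7 higher and 2 lower, a smaller share than the 41.8% of all genes. NPC1 was at 8.59 and 7.80 FPKM, against 4.46 and 3.99 in the control (1.00 ± 0.15, adjusted p = 2.38e-05, edgeR), ATP6V1D at 18.3 and 18.4, against 10.4 and 10.3 (0.86 ± 0.15), and ATP6V1E1 at 28.5 and 28.8, against 17.4 and 15.9 (0.82 ± 0.13). In each of these the groups did not overlap. On day 3 ATP6V1D had instead been lower with HCl, at 8.33 and 10.3 FPKM, against 13.8 and 14.1 (−0.50, a call lost without either control library or the first HCl library), and ATP6V0A1 higher, at 4.95 and 5.12, against 3.29 and 3.29. The count of day 5 was 5 without either control library or the second HCl library and 14 without the 2-DG libraries of day 3 in the fit, and on the FPKM scale it split into 8 higher and 4 lower.

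On day 7, 19 of 32 genes were called with HCl, 8 higher and 11 lower, against 43.2% of all genes, 23.1% higher and 20% lower (median −0.09). Of the 6 proteases 5 fell and none rose, and 3 of the 4 glycosidases and saposins rose. CTSB was at 18.4 and 19.3 FPKM with HCl, against 32.4 and 32.4 in the control, and fell by 0.73 ± 0.07 (adjusted p = 2.93e-10, edgeR). CTSH had 1.60 and 1.46 FPKM, against 2.72 and 3.03 (−0.86 ± 0.12). PSAP had 318 and 300 FPKM, against 223 and 227 (0.51). Without the first control library of day 7 the count was 12, and the decreases of CTSA, CTSD, ATP6V0C, ATP6V0D1 and ATP6V0E1 were among those lost.

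On day 11, 26 genes were called with HCl, 22 higher and 4 lower, against 52.7% of all genes, 25.3% higher and 27.4% lower (median 0.31). The pump carried most of this: 15 of its 16 genes rose and none fell (median 0.35), all 8 V1 subunits among them. The mitochondrial share of the counts was also higher in these libraries, at 9.87% and 9.75% with HCl, against 3.81% and 3.95% in the control, and its part in the rises was not tested. ATP6V0B was at 24.4 and 24.7 FPKM, against 13.7 and 14.0 in the control (0.91 ± 0.08, adjusted p = 1.97e-11, edgeR). ATP6V1D had 19.4 and 19.6 FPKM, against 12.2 and 13.7 (0.67), and ATP6V1H 10.1 and 9.32, against 6.98 and 6.98 (0.56). The smaller rises, of 0.22 to 0.37, of ATP6V0A1, ATP6V0C, ATP6V0E1, ATP6V1F, ATP6V1G1 and ATP6AP2 were lost without the first control library. The 4 decreases were those of CTSH (−1.21), GLA (−0.63), TPP1 (−0.41) and NPC2 (−0.31), the last of which was lost without the second library of either group.

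Tested directly, the HCl effect differed between day 11 and day 7 for 21 of 32 genes, 18 higher on day 11 and 3 lower, against 41.4% of all genes, 19.4% higher and 21.9% lower. Between day 5 and day 3 it differed for 7 of 31 genes (27.8% of all genes). That second count was 3 or 4 without the first control library of either day, the first HCl library of day 3 or the second of day 5.

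**Figure D4:**
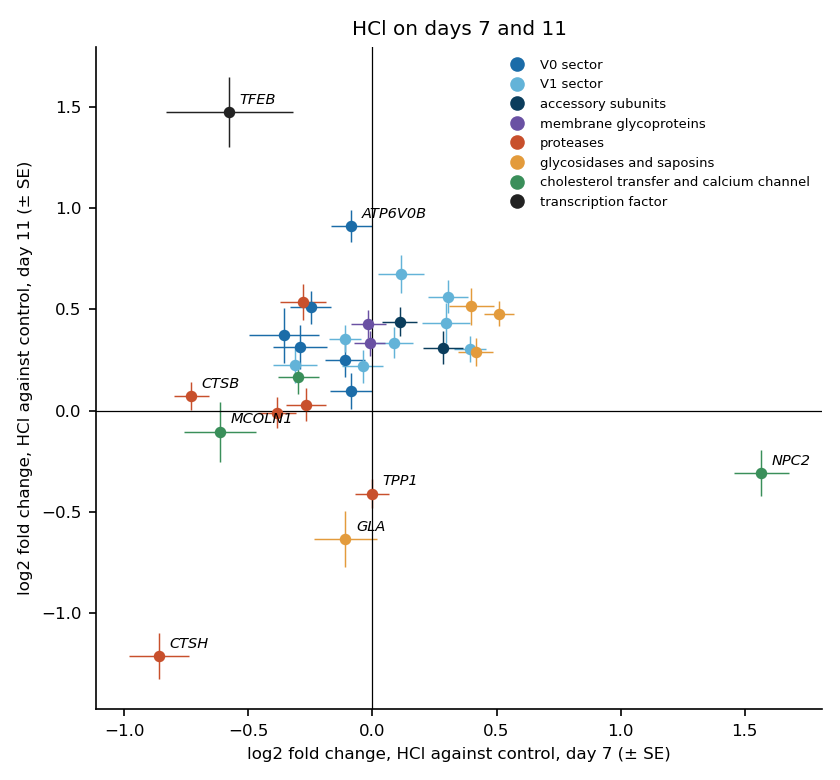
Log2 fold change ± SE of each gene with HCl against the control on day 7 (x axis) and day 11 (y axis), which use different libraries. Called genes above 0 number 22 on day 11 and 8 on day 7, and NPC2 stands at 1.57 on day 7 and −0.31 on day 11.

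With base alone fewer genes of the set were called on days 3, 5 and 7 than on day 11, as was also so over all genes. On day 5, 6 of 31 genes were called with NaHCO3, 2 higher and 4 lower (15.8% of all genes). CTSZ was at 65.3 and 65.3 FPKM, against 41.1 and 38.7 in the control (0.75 ± 0.16), and CTSB at 42.6 and 43.3, against 29.3 and 27.4 (0.64), with both NaHCO3 libraries above both controls. On day 7, 9 of 32 were called, 5 higher and 4 lower, a smaller share than the 40.3% of all genes, and 4 higher and 10 lower on the FPKM scale. The count of day 5 was 3 without the first control library and 12 without the 2-DG libraries of day 3 in the fit.

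On day 11, 23 of 32 genes were called with NaHCO3, 19 higher and 4 lower, against 52.5% of all genes, 26.0% higher and 26.5% lower (median 0.23). All 6 proteases rose (median 0.49), as did 7 of the 8 V1 subunits (median 0.64). This excess depended on the scaling: on the FPKM scale, where the median of all genes was 0.12 lower, limma called 9 members higher and 7 lower (median 0.03). The largest changes held on both scales. ATP6V0E1 was at 71.9 and 67.5 FPKM with NaHCO3, against 32.7 and 41.2 in the control (1.11 ± 0.14, adjusted p = 1.10e-06, edgeR), and ATP6V1F at 153 and 153, against 86.3 and 90.2 (0.99 ± 0.09, adjusted p = 4.15e-11). The paralogs of the a subunit both fell, ATP6V0A2 with 1.46 and 1.37 FPKM, against 2.55 and 2.40 (−0.61), and ATP6V0A1 with 3.52 and 3.52, against 5.09 and 5.13 (−0.34). For ATP6V1A, ATP6V1C1, ATP6AP1 and ATP6AP2, called with rises of 0.18 to 0.26, the FPKM values of the 2 groups overlapped, and each call was lost without 1 or more single libraries.

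IWP2 alone, set against the control, changed 5 of 31 genes on day 5, 2 higher and 3 lower (15.3% of all genes), and this count was 2 without the first control library, 3 without any other of the 4, and 12 without the 2-DG libraries of day 3 in the fit. On day 7 IWP2 changed 17 of 32, 11 higher and 6 lower, against 47.4% of all genes, 23.3% higher and 24.1% lower (median 0.12). On the FPKM scale limma called 11 higher and 8 lower (median 0.02). By edgeR, 8 of the 16 pump genes rose and none fell, while 4 of the 6 proteases fell and none rose. ATP6V0B was at 22.0 and 21.9 FPKM with IWP2, against 14.2 and 14.5 (0.71 ± 0.08, adjusted p = 4.82e-09, edgeR), and ATP6V1A at 20.6 and 21.4, against 15.2 and 14.8 (0.58). On day 11, 15 were called, 7 higher and 8 lower (45.4%). TPP1 had 14.8 and 14.6 FPKM, against 26.4 and 27.8 (−0.85 ± 0.07, adjusted p = 1.91e-11). The IWP2 effect differed between day 11 and day 7 for 11 genes, all lower on day 11, against 15.4% of all genes, 5.41% higher and 9.98% lower. This count was 6 without the second control library of day 7 and 7 without the first control library of day 7, the second control library of day 11, either IWP2 library of day 11 or the first of day 7.

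With IWP2 present, adding NaHCO3 changed 4 of 31 genes on day 5, 1 higher and 3 lower (13.0%). The count was 1 without the first IWP2 library, 2 without the first library with both agents, and 8 without the 2-DG libraries of day 3 in the fit. On day 7 it changed 19 of 32, 4 higher and 15 lower, against 48.6% of all genes, 24.6% higher and 24.0% lower (median −0.19), and limma on the FPKM scale called 7 higher and 12 lower. None of the 16 pump genes rose and 9 fell, among them ATP6V1A, at 15.6 and 15.1 FPKM, against 20.6 and 21.4 with IWP2 alone (−0.51). On day 11 it changed 24, 19 higher and 5 lower, against 50% of all genes, 26.1% higher and 23.9% lower (median 0.23). All 6 proteases rose. CTSD was at 57.1 and 61.1 FPKM with both agents, against 33.0 and 28.0 with IWP2 alone (1.02 ± 0.08, adjusted p = 4.45e-12, edgeR). TPP1 had 22.9 and 22.3 FPKM, against 14.8 and 14.6 (0.68).

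Whether NaHCO3 acted differently with IWP2 and without it was tested as an interaction. It was called for 0 of 31 genes on day 3 by edgeR (0.474% of all genes), where 4 had an unadjusted p under 0.05 and DESeq2 called 1. On day 5 it was called for 1, CTSZ (5.7% of all genes), a call lost without any 1 of the 8 libraries. On day 7 it was called for 16 of 32 (37.9%), 4 higher and 12 lower, and on day 11 for 20 (42.3%), 10 higher and 10 lower. On the FPKM scale limma called 7 higher and 6 lower on day 7, and 11 higher and 6 lower on day 11. MCOLN1 had the largest difference on day 11 outside TFEB: it was at 2.97 and 3.04 FPKM with both agents, against 1.85 and 2.04 with IWP2 alone (0.69), and at 2.04 and 1.72 with NaHCO3, against 2.75 and 2.99 in the control (−0.41), a call that was lost without the second library of either group. IWP2 acted differently on days 5 and 3 for 1 gene, CTSH (7.21% of all genes), and this call was lost without the first control library of either day or the second IWP2 library of either day.

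Across the treatments, NPC2, CTSH and TFEB changed most, and each had a course of its own. By the deposited coordinates on GRCh37, NPC2 lies on the minus strand at chr14:74942895-74960880, CTSH on the minus strand at chr15:79213400-79241916 and TFEB on the minus strand at chr6:41651716-41703997. NPC2 was highest with IWP2 on day 5 and with HCl on day 7. On day 5 it was at 153 and 143 FPKM with 2-DG, 106 and 98.8 with IWP2 and NaHCO3, 287 and 261 with IWP2, 51.7 and 51.1 with NaHCO3, 192 and 194 with HCl, and 146 and 139 in the control. IWP2 raised it by 0.95 ± 0.16 over the control (adjusted p = 0.000311, edgeR), and NaHCO3 lowered it by 1.43 alone and by 1.45 in the presence of IWP2 (adjusted p = 3.58e-06 and 3.67e-06). The rise with HCl on day 5 (0.48) was lost without any 1 of the 4 libraries. On day 7 it was at 81.1 and 79.9, 49.1 and 53.9, 76.3 and 77.3, 25.6 and 38.95, 223 and 208, and 73.8 and 77.1 FPKM in the same order of groups. HCl raised it by 1.57 ± 0.11 (adjusted p = 1.24e-10), and NaHCO3 lowered it by 1.10 alone and by 0.63 with IWP2. On day 11 all 12 libraries lay between 42.2 and 74.9 FPKM. Fibroblast and matrix markers on day 5 were at 423 and 476 (2-DG), 1573 and 1655 (IWP2 and NaHCO3) and 712 and 667 FPKM (IWP2). They were at 2453 and 2375 (NaHCO3), 60.2 and 60.0 (HCl) and 795 and 910 FPKM (control). On day 7 they were at 356 and 290 (2-DG), 2319 and 2206 (IWP2 and NaHCO3) and 326 and 488 FPKM (IWP2). They were then at 5706 and 5249 (NaHCO3), 451 and 418 (HCl) and 2320 and 2208 FPKM (control). The part of these markers in the course of NPC2 was not tested.

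CTSH separated the treatments on day 11. It was at 1.61 and 1.70 FPKM with 2-DG, 11.2 and 12.7 with IWP2 and NaHCO3, 1.63 and 1.94 with IWP2, 15.6 and 14.5 with NaHCO3, 2.12 and 1.81 with HCl, and 4.88 and 4.79 in the control. Among the 3 lowest groups, IWP2 overlaps both 2-DG and HCl, which do not overlap each other. The control lies above all 3, and the 2 groups with NaHCO3 and no 2-DG lie highest, without overlap. Against the control, NaHCO3 raised it by 1.84 ± 0.10, HCl changed it by −1.21 ± 0.11 and IWP2 by −1.41 ± 0.11 (adjusted p = 4.97e-16, 8.97e-11 and 8.76e-12, edgeR). Added to IWP2, NaHCO3 raised it by 2.81 ± 0.11, and 2-DG on top of both changed it by −2.83 ± 0.11 (adjusted p = 2.29e-19 and 1.45e-19). These last 2 changes share the libraries of IWP2 with NaHCO3, in opposite roles. On day 3 the 12 libraries lay between 2.30 and 4.27 FPKM and no comparison called CTSH. The 3 groups with the lowest CTSH were also those with the lowest sums of liver and foregut markers (122 to 288 FPKM, against 3157 to 4320 in the other 3) and of matrix markers (330 to 641 FPKM, against 2935 to 6500), and the part of these cells in the level of CTSH was not tested.

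TFEB was low on days 3 and 5, at 0.05 to 0.78 FPKM. On day 7 it was at 2.02 and 2.27 FPKM with 2-DG, 0.94 and 1.16 with IWP2 and NaHCO3, 3.04 and 2.58 with IWP2, 0.74 and 0.53 with NaHCO3, 0.29 and 0.40 with HCl, and 0.49 and 0.57 in the control. On day 11 it was at 3.24 and 2.92, 1.13 and 1.02, 2.92 and 2.79, 0.98 and 1.00, 2.59 and 3.26, and 0.97 and 1.27 FPKM in the same order. On that day the 3 groups with 2-DG, IWP2 alone or HCl lay between 2.59 and 3.26 FPKM and the other 3 between 0.97 and 1.27, with no value between. IWP2 raised TFEB by 2.49 ± 0.19 on day 7 and 1.38 ± 0.17 on day 11 (adjusted p = 1.74e-12 and 6.46e-08, edgeR). At these low levels the scale matters: on log2(FPKM + 1) limma gave 1.31 for the first of these changes. TFEB passed the filter through groups where it was high, IWP2 among them, so its p-values do not stand apart from that selection. Adding NaHCO3 to IWP2 changed it by −1.48 ± 0.17 and −1.34 ± 0.17, and adding 2-DG to both by 1.11 ± 0.18 and 1.54 ± 0.17. HCl raised it by 1.47 ± 0.17 on day 11, while its change of −0.58 on day 7 was not called, and the test of the difference between these days gave 2.05 ± 0.31 (adjusted p = 2.27e-06). The 3 groups with high TFEB on day 11 are also those with heart muscle markers of 3342 to 5203 FPKM, against 18.6 to 688 in the other 3. On day 7 these markers were at 2900 and 2862 FPKM with 2-DG, 5263 and 4854 with IWP2, and 870 and 1186 with HCl. They were at 472 and 510 FPKM with IWP2 and NaHCO3, 72.5 and 35.1 with NaHCO3, and 358 and 409 in the control. The part of the heart muscle cells in the level of TFEB was not tested.

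**Figure D5:**
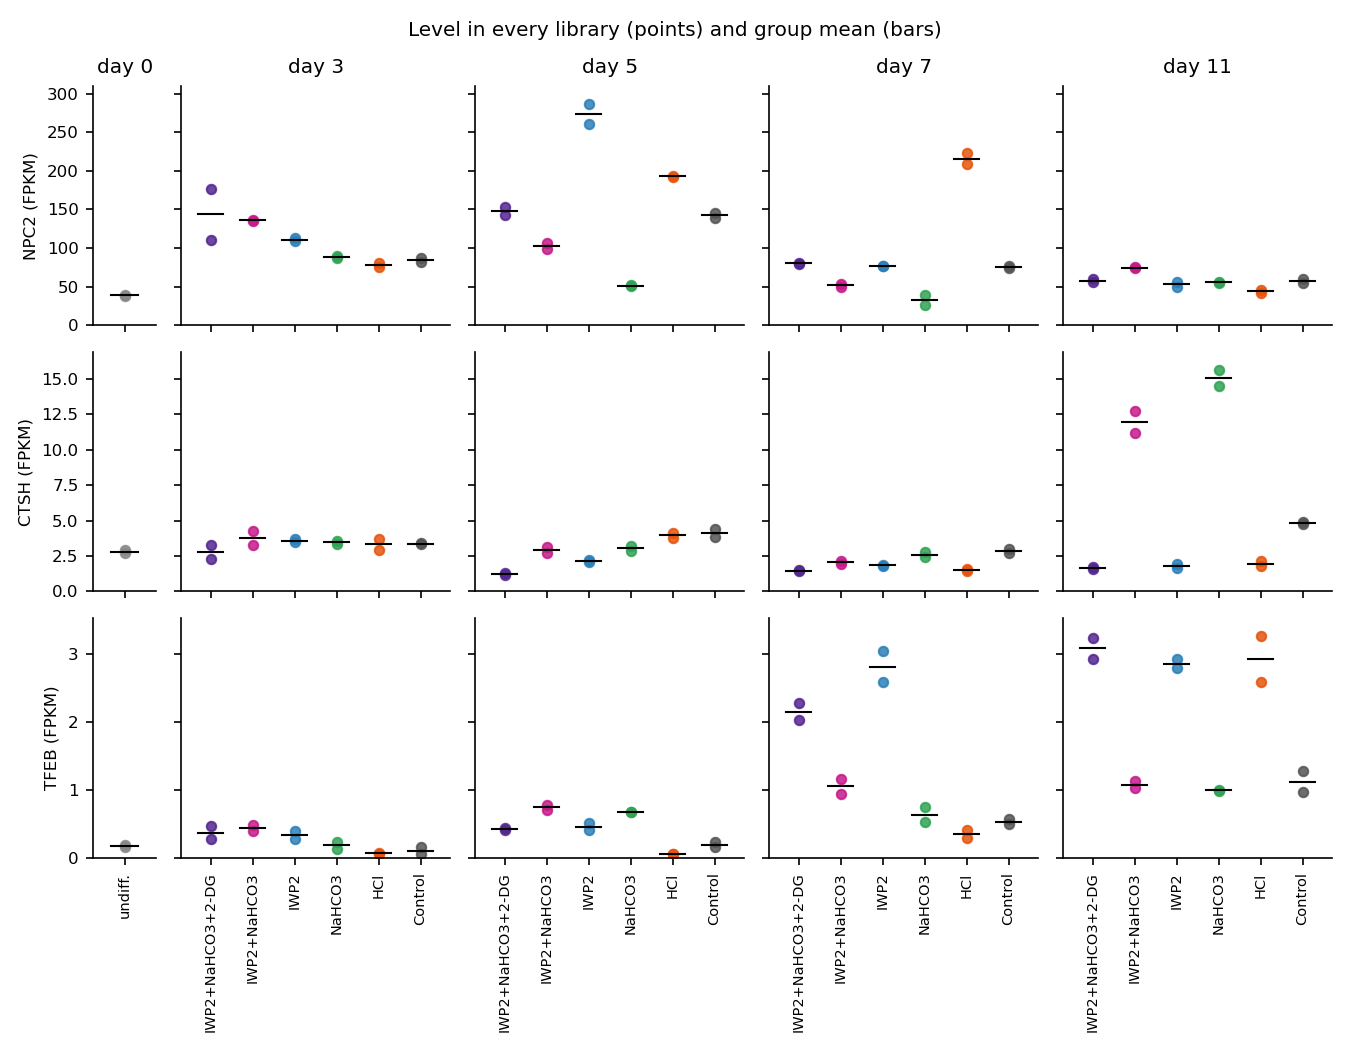
FPKM of NPC2, CTSH and TFEB in each library (points) and as group means (bars), by day and treatment; days 3 and 5 come from another deposited table than days 0, 7 and 11. NPC2 peaks with IWP2 on day 5 (287 and 261) and HCl on day 7 (223 and 208), CTSH with NaHCO3 on day 11 (15.6 and 14.5), and TFEB reaches 2.59 to 3.26 in 3 groups of day 11.

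Neighbouring lists of the same pathway were followed beside the set. With 2-DG on day 5, 11 of 16 other lysosomal membrane proteins rose and none fell (median 0.52), led by the sialic acid exporter SLC17A5 (1.92 ± 0.19), by OSTM1 (1.31) of the lysosomal chloride transporter and by LAPTM4B (0.82). Of 34 other lysosomal hydrolases and cofactors, 12 rose and 7 fell (median 0.09), with the hyaluronidase HYAL1 (−2.09) and the collagen-degrading CTSK (−1.29) lowest and the sialidase NEU1 (0.94) among the rises. Of 16 genes of sorting to the lysosome 6 rose and none fell, among them RAB7A (0.82) and IGF2R, the mannose 6-phosphate receptor (0.79). Of 18 genes of MiT/TFE factors and mTORC1 signalling 6 rose and 1, the factor MITF (−1.34), fell. The Rag GTPase gene RRAGD rose by 2.02 ± 0.23 and RHEB by 1.27. Of 19 autophagy genes 9 rose and 4 fell, with the cargo receptor SQSTM1 at 1.55 and WIPI1 at 1.23. Of 13 other pump subunits and assembly factors 2 rose and 2 fell. In this list, and in those of sorting and of MiT/TFE factors, the share called in both directions together was no larger than the 39.6% of all genes. The share that rose was larger than the 20% of all genes in the lists of sorting and of MiT/TFE factors, but not in this one.

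On day 11, where the share of all genes called is given above for each treatment, the other hydrolases were counted in the same way. With 2-DG, 9 of 33 hydrolases rose and 20 fell (median −0.48), with the acid lipase LIPA at −2.98, HYAL1 at −1.90 and the legumain gene LGMN at 1.13. With HCl 16 rose and 9 fell, LIPA at −2.82, HYAL1 at −2.68 and LGMN at 1.48, and with IWP2 7 rose and 15 fell, HYAL1 at −2.86 and LIPA at −1.71. Adding NaHCO3 to IWP2 had 18 rises and 9 decreases (median 0.41), with LIPA at 1.97, LGMN at −1.66 and HYAL1 at 1.64. Among the MiT/TFE genes, RRAGD was at 2.99 with 2-DG, 1.77 with HCl, 1.68 with IWP2, −2.33 with NaHCO3 alone and −2.21 with NaHCO3 added to IWP2, and MITF at 1.83, 1.81 and 1.78 with 2-DG, HCl and IWP2. The NaHCO3 and HCl values share control libraries with those of IWP2, and IWP2 with NaHCO3 is on top of one fold change and at the bottom of another. Against undifferentiated cells, 70.6% of all genes were called in the control of day 11, 36.3% higher and 34.3% lower. There 23 of 33 hydrolases were higher and 8 lower (median 0.70), with CTSO at 3.01, CTSL at 2.68 and CTSC at −3.2.

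Some members share their place in the genome with other genes, and the strand used in counting is not given in the sources used here. By the deposited coordinates on GRCh37, 13 of the 32 overlap a gene that reached 1 FPKM in some library, 9 of them on the opposite strand. ATP6V1D shares 41449 of the 65895 bases of its gene with MPP5 (up to 17.2 FPKM) and 269 with EIF2S1 (up to 21.2 FPKM), against at most 25.7 FPKM of its own. NPC1 shares 25599 bases of its gene with C18orf8, which reached 7.79 FPKM, ATP6V1F lies wholly within KCP (up to 8.6 FPKM), and CTSA shares 61 bases with PLTP (up to 98.3 FPKM). Reads of such pairs cannot be told apart here where exons overlap. On day 5 C18orf8 was at 6.8 and 7.79 FPKM with HCl, against 3.36 and 4.12 in the control. With 2-DG that day it was at 6.62 and 7.51 FPKM, against 4.95 and 5.21 with IWP2 and NaHCO3. NPC1 was called higher in the same comparisons, and the part of C18orf8 reads in its rises was not tested. Of ATP6V0C, ATP6V0E1, ATP6V1E1 and ATP6V1G1, 13 pseudogenes have rows of their own, and none of these exceeded 0.72 FPKM.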

How the data were processed

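Per the labels' protocols, RNAiso Plus was used for extraction and the VAHTS Universal V8 kit for libraries, starting at 1 µg of total RNA each. The submitters' processing notes name cutadapt 1.9.1, HISAT2 2.0.1, HTSeq 0.6.1 and the GRCh37 build, without the step or settings of each. The strand used in counting is not given in the sources used here. The authors deposited 2 tables, 1 of days 3 and 5 and 1 of days 7, 11 and 0. Each holds, per the file headers, counts per gene and library, FPKM values and the exonic size of each gene. FPKM recomputed from the deposited counts and sizes had a ratio of 1 to the deposited FPKM, so these values are scaled by each library's total and by no other factor.

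Groups were taken from the sample labels. Counts were tested with edgeR 4.0.16 in R 4.3.3 (TMM scaling, robust quasi-likelihood fit, each table fitted whole with a mean for every group). Genes entered if 2 or more libraries reached 1 FPKM, which kept 99.57% and 99.63% of the counts of the 2 tables. P-values were adjusted by Benjamini and Hochberg over all genes of a fit. Of the 34 comparisons, 10 were tests of a difference between 2 effects. On simulated data with 50 genes changed per fold size, 82% of 2-fold changes were called for HCl on day 3 (17286 genes) and 98% for HCl on day 11 (18451 genes). The simulation changed far fewer genes than were called in the data, and none of low count, so its rates need not hold for the data. The alternatives were DESeq2's size factors, DESeq2 1.42.0, no filter, a replicate block, limma 3.58.1 on log2(FPKM + 1) and log2(FPKM + 0.1), the compared days alone, no 2-DG libraries of day 3, and 50 fits without 1 library each. A fit without 1 library assumes that the remaining library of its group varies like the others.

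The members, gene lists and tests were chosen with earlier results of these data known. All 32 members are named, those changed by at least 1 on the log2 scale in some comparison are described in full, and from each other list up to 3 called genes with the largest change are named per comparison.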

Additional observations from a re-analysis of the deposited data

Results flagged for a closer look

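For 7 genes, 12 tests of a difference between 2 effects passed an adjusted p of 0.05 with a size of at least 1 on the log2 scale, all by edgeR's quasi-likelihood test. The HCl effect on day 5 minus that on day 3 was −1.06 ± 0.14 for ATP6V0A1 and 1.37 ± 0.22 for ATP6V1D (adjusted p = 1.23e-05 and 6.46e-05). The HCl effect on day 11 minus that on day 7 was −1.88 ± 0.16 for NPC2 and 2.05 ± 0.31 for TFEB (adjusted p = 3.30e-09 and 2.27e-06). For IWP2, the effect on day 5 minus that on day 3 was −1.03 ± 0.25 for CTSH (adjusted p = 0.0132), and the effect on day 11 minus that on day 7 was −1.11 ± 0.26 for TFEB (adjusted p = 0.00296).

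The 2-DG effect on day 5 minus that on day 3 was 1.05 ± 0.22 for NPC1 (adjusted p = 0.00127). Its 2 libraries with 2-DG on day 3 were at 3.92 and 7.24 FPKM, on both sides of the 5.39 and 5.33 with IWP2 and NaHCO3. On day 11 minus day 7, the 2-DG effect was −2.42 ± 0.17 for CTSH and −1.07 ± 0.16 for NPC2 (adjusted p = 3.10e-12 and 1.93e-05). The effect of NaHCO3 with IWP2 minus that without it was −1.85 ± 0.29 for TFEB on day 7, and −1.37 ± 0.26 for TFEB and 1.10 ± 0.22 for MCOLN1 on day 11 (adjusted p = 5.21e-06, 6.58e-05 and 9.64e-05). TFEB passed the filter through groups where it was high, so none of its p-values in this section stands apart from that selection.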

How the results depend on the processing

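Of 344 called changes of the members, 123 lost the call under at least 1 alternative and 1 turned round: ATP6V1C1 with NaHCO3 on day 11 was −0.0125 and −0.0135 by limma with pseudocounts 1 and 0.1, against 0.18. Of 34 counts of called members, 19 moved by more than 1.5 times under at least 1 alternative, mostly on days 3 and 5; the causes were not tested. DESeq2's size factors and the replicate block moved no count that far. Replicate numbers did not pair the libraries: over 60 pairs of groups of the same day, the correlation of same-numbered deviations was −0.17 to 0.15. With the replicate block, 9 members were called for HCl on day 3 without GAA, and 342 of the 344 calls stayed.

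In the order HCl, NaHCO3, IWP2, NaHCO3 added to IWP2, the counts without the 2-DG libraries of day 3 were 15, 10, 3 and 12 on day 3 and 14, 12, 12 and 8 on day 5. With the compared days alone they were 3, 1, 0 and 0 on day 3 (2 for 2-DG) and 14, 13, 15 and 8 on day 5. Without those 2-DG libraries, the control on day 5 against day 3 gave 18, the change of the HCl effect 11 and of the IWP2 effect 7, and the NaHCO3 by IWP2 test 2 on day 3 and 3 on day 5 (3 with day 5 alone). With no filter, counts were 1 for NaHCO3 and 1 for NaHCO3 added to IWP2 on day 3, 3 for IWP2 on day 5, 2 and 6 for the change of the IWP2 and 2-DG effects to day 5, and 2 for NaHCO3 by IWP2 on day 5. DESeq2 gave 5 for NaHCO3 on day 3, 3 for the change of the IWP2 effect to day 5, and 1 and 2 for NaHCO3 by IWP2 on days 3 and 5. limma gave 3 or 2 (pseudocount 1 or 0.1) for NaHCO3 added to IWP2 on day 3, 14 for NaHCO3 on day 7, 2 and 7 for the change of the IWP2 effect to days 5 and 11, and, with pseudocount 1, 1 and 2 for NaHCO3 by IWP2 on days 3 and 5.

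Without 1 library at a time, counts were 4 to 6 (HCl), 1 to 2 (NaHCO3), 0 to 1 (IWP2), 0 to 1 (NaHCO3 added to IWP2) and 4 to 23 (2-DG) on day 3, and 5 to 7, 3 to 4, 2 to 3, 1 to 4 and 21 to 22 on day 5. On day 7 HCl gave 12 to 15. The control gave 3 to 5 on day 5 against day 3 and 5 to 7 on day 11 against day 7. The change of effect gave 3 to 6 (HCl, to day 5), 0 to 1 and 6 to 9 (IWP2, to days 5 and 11) and 5 to 16 (2-DG, to day 5), and NaHCO3 by IWP2 on day 5 gave 0. Of simulated 1.5-fold changes, 34% were called for HCl on day 3 and 72% for HCl on day 11. Far fewer genes changed in the simulation than were called in the data, so the share of such changes missed in the data may differ.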
